A study of Homo sapiens with 24 samples.

Results

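Replication licensing is the loading of the MCM2-7 helicase onto origins before DNA synthesis, and 10 of its genes are described here out of 58884 genes listed in each of 2 expression tables. The members were chosen by name: MCM2, MCM3, MCM4, MCM5, MCM6 and MCM7, which encode the subunits of the helicase, CDC6 and CDT1, which encode its loaders, GMNN, which encodes the CDT1 inhibitor geminin, and MCM10, which encodes a factor of helicase activation. All 10 were listed in both tables and passed the filter on low values in both. RNA-seq was performed on HEK293T, a human embryonic kidney cell line, with and without the histone H3 lysine 36 methyltransferase SETD2. The comparisons ask how the transcriptome differs without SETD2 and after full-length or N-terminally truncated SETD2 is put back. The values are TPM, in which reads are corrected for transcript length and expressed as a fraction of the library total, so the depth of a library is unknown. The WT group (2 libraries) and a first KO group (2 libraries) are in the first table. Sample titles label the libraries of the first table batch 1 and those of the second table batch 2. The second table holds a second KO group, KO cells given full-length SETD2 (SETD2 FL, residues 1 to 2564) and KO cells given its C-terminal segment (SETD2 C, residues 1404 to 2564), with 2 libraries each. KO cells carry disruptions of the endogenous SETD2 gene, and the labels describe them as untreated, so no library of cells given an empty vector was analysed here. Both constructs were driven by a CMV promoter and introduced by transient transfection, and RNA was isolated 72 h later. All groups derive from a single cell line. It is not clear from the sources used here whether the RNA-seq replicates were separate cultures, so p-values measure only the spread between these libraries, which may be technical.

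Before S phase the origin recognition complex, CDC6 and CDT1 load MCM2-7 onto origin DNA as an inactive double hexamer made of all subunits in equal number. Geminin binds CDT1 and blocks further loading once S phase has begun, and CDT1 is also degraded by CUL4 and SCF ubiquitin ligases. MCM10, CDC45 and the GINS complex then take part in turning the loaded helicase into an active one. Many of these genes are known targets of E2F transcription factors, which peak in activity as cells enter S phase.

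Promoter sequences were looked at because several of the members moved in the same direction in 1 comparison, and because E2F sites are a textbook feature of this family. RefSeq promoter windows of GRCh38.p14, reaching from 250 bases before to 50 bases after the start of a gene, were found by symbol for 8 of the 10 members, without MCM4 and MCM5. The octamers TTTCCCGC, TTTGGCGC, TTTCGCGC and TTTGCCGC were searched on both strands, and some matches overlap each other. At least 1 of them was present in 3.31% of the 35116 windows in the table. Counted by gene symbol over any of its windows, a match was present in 3.99% of 27305 symbols and in 7 of the 8 members. The member without a match was MCM10. The stretches below are those of a helicase subunit with repeated matches, of MCM7 and CDT1, which were lower with SETD2 C, and of geminin, which was not called. Capitals mark the matched letters, and each stretch runs 5′ to 3′ on the strand of its gene.
MCM6, chr2:135876502-135876615, minus strand: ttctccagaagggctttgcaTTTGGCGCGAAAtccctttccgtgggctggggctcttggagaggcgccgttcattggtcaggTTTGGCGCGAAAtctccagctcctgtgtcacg
MCM7, chr7:100101398-100101426, minus strand: cggtcacgtggggggcgacgTTTCGCGCc
CDT1, chr16:88803734-88803781, plus strand: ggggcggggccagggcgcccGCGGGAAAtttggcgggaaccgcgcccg
GMNN, chr6:24775313-24775360, plus strand: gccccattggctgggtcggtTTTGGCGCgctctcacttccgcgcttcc
The MCM6 stretch holds 4 matches as overlapping pairs, and the same 12 letters occur in both pairs. The GMNN match lies in 1 of the 2 windows of that gene, and the MCM7 match in 1 of the 3 windows of that gene. The match of CDT1 is the reverse complement of TTTCCCGC and begins 35 bases before the start. A further match in that MCM7 window begins 187 bases before the start. Starts here are the RefSeq starts that place the windows. The MCM7 and GMNN windows with matches lie inside the GENCODE spans of their genes, downstream of the GENCODE starts. Binding was not tested.

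SETD2 itself was examined first as a check of the construct labels. WT libraries of the first table had SETD2 TPM of 12.6 and 14.8, and the libraries labelled KO beside them had 16.2 and 16.3. Of the second table, those labelled KO had 12.0 and 12.2, the SETD2 FL pair had 439 and 422, and the SETD2 C pair had 1329 and 1264. The SETD2 transcript was thus not lower in the libraries labelled KO than in WT. Whether disruption of the gene lowers its transcript is not known here, so this level does not check the KO label. SETD2 protein and H3K36 methylation were not analysed here. Between the rescue groups, scaled SETD2 TPM in the SETD2 C pair was 2.75-fold that of the SETD2 FL pair (limma adjusted p = 7.06e-06), so construct and transcript dose cannot be told apart. The length correction in TPM was not adjusted here for the shorter SETD2 C construct.

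Some libraries stood apart before any licensing gene was considered. Mitochondrially encoded genes took 23.2% of TPM in WT replicate 1, against 14.1% in WT replicate 2 and 12.0% and 12.4% in the KO libraries of the first table. For the second table these shares were 7.04% and 6.23% (KO), 11.0% and 7.79% (SETD2 FL), and 2.93% and 3.37% (SETD2 C). TPM was therefore divided by a scaling factor, the median ratio of each library to the others. Without scaling, the median log2 fold change over all genes tested between SETD2 C and KO moved from 0.05 to 0.18, a shift of 0.13. It moved by 0.12 between KO and WT and by 0.12 between SETD2 C and SETD2 FL. The percentage of called genes that were higher moved with it, from 58.3% to 83.1% for SETD2 C against KO, from 56.0% to 77.5% for SETD2 C against SETD2 FL and from 29.3% to 53.3% for KO against WT. With quantile normalization it was 46.9% for SETD2 C against KO and 46.8% for SETD2 C against SETD2 FL, and for SETD2 C against KO with TPM rescaled without mitochondrially encoded genes and SETD2 it was 75.7%.

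Markers of the cell line and of other cell types were read in every library. All 8 genes on the list for HEK293T (KRT8, KRT18, VIM, PAX2, NEFL, NEFM, LIN28B and NES) had TPM above 0 in every library, led by VIM at 444 to 926. Their summed TPM was 759 and 893 for WT and 1106 and 1063 for the KO pair beside it. In the other table the sums were 1116 and 1115 for KO, 943 and 1074 for SETD2 FL, and 1581 and 1662 for SETD2 C. Of these 8, 3 were called higher in KO than in WT, 5 in SETD2 C than in KO and 6 in SETD2 C than in SETD2 FL, and 0 were lower in limma. In these comparisons 1.32%, 21.1% and 21.4% of all genes were higher, and 3.17%, 15.1% and 16.8% lower. The 3 higher in KO became 0 with no filter on low values and with eBayes without trend. The 3 between KO and WT became 0 without WT replicate 1, KO replicate 1 or KO replicate 2. PTPRC, the defining immune marker, was at 0 in all libraries except both of SETD2 C. The 4 fibroblast markers, led by COL1A1, summed to 7.63 to 11.1 TPM in the first table, and then to 8.06 and 8.11 for KO, 9.12 and 10.9 for SETD2 FL, and 16.1 and 14.0 for SETD2 C, where the 3 that were tested were called higher than in KO (1 of them without SETD2 C replicate 1). The 3 endothelial markers summed to at most 0.27 TPM in any library and the 3 hepatocyte markers to at most 1.61, with APOA1, the 1 tested, called higher with SETD2 C than for KO, a call lost without KO replicate 2 or either SETD2 C library. The part of these markers in the licensing results was not tested.

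Within a library, TPM is per transcript length and lets the genes be ordered. MCM7 was the most abundant member in KO cells of the second table, with a mean of 218 TPM ± 0.495 (SD, n = 2). MCM4 followed at 149 ± 11.1, MCM3 at 147 ± 6.42 and MCM2 at 143 ± 1.90, and these 3 did not differ beyond their spread. CDT1 and GMNN came next at 112 ± 4.72 and 111 ± 2.38, also within their spread, followed by MCM5 at 106 ± 4.70. GMNN lay above MCM5 in both of these libraries, while the values of CDT1 and MCM5 overlapped. CDC6 stood at 91.0 ± 3.85, MCM6 at 67.9 ± 0.410, and MCM10 was lowest at 28.3 ± 1.67. In the first table the KO libraries placed MCM4 first, at 451 ± 37.2 TPM, while CDT1 at 56.7 ± 3.44 and MCM10 at 56.8 ± 1.85 were lowest and did not differ beyond their spread. The tables were normalised separately, so no test was made between them.

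**Figure D1:**
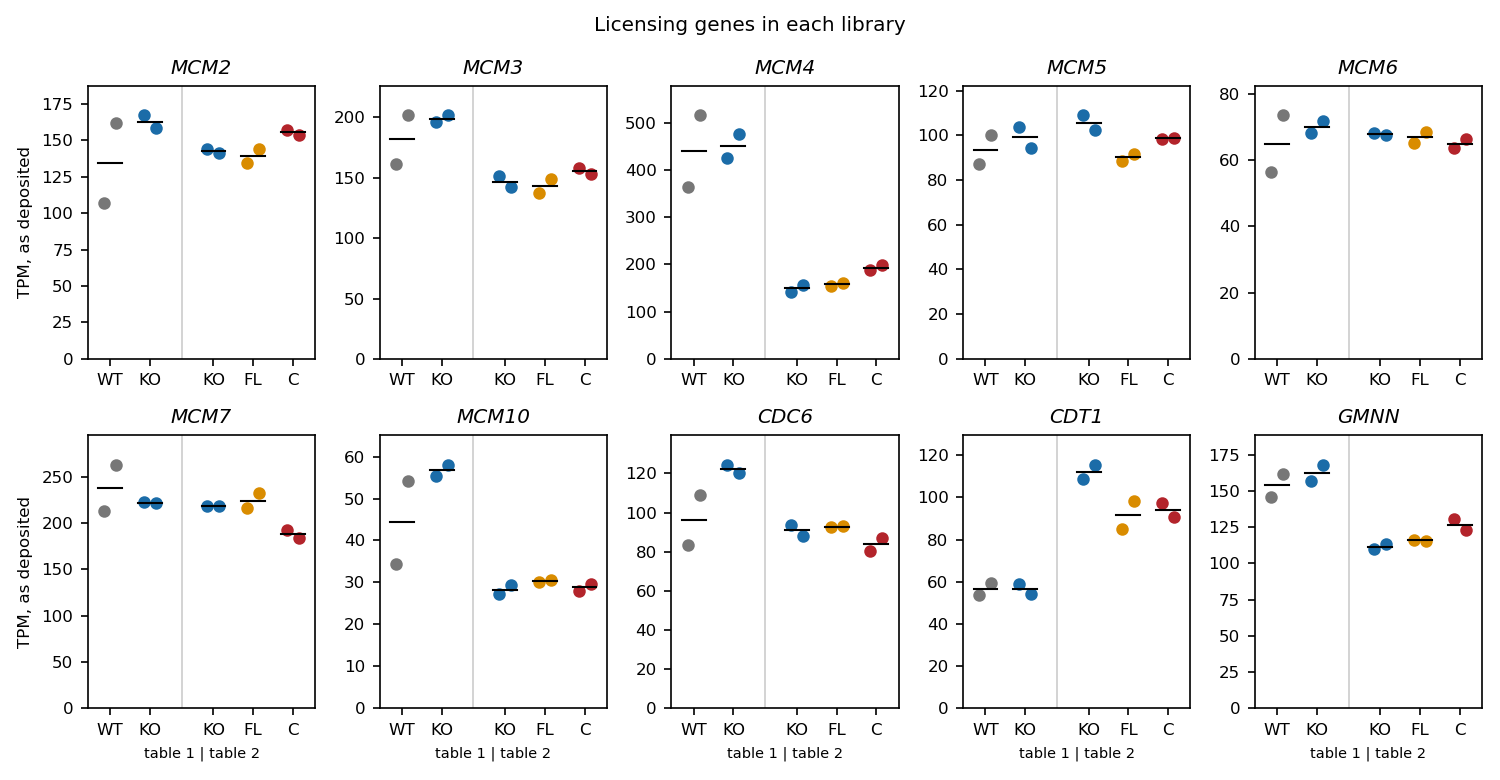
Deposited TPM of each licensing gene (vertical axis, from 0) in each library, 1 point per library with a bar at the group mean, the first table left and the second table right of the grey line. MCM4 reaches 516 TPM in the first table and no more than 199 in the second, while MCM7 is lowest with SETD2 C.

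No licensing gene was called between KO and WT. Of the 10 members, 0 were higher and 0 lower in limma with Benjamini-Hochberg adjustment (threshold 0.05), where 1.32% of 14746 genes were higher and 3.17% lower. At an unadjusted p under 0.05 there were 2 members, MCM7 and CDC6, against 24.9% of all genes. With a fold change of at least 2 as a further condition, 0 members and 1.36% of all genes were called. Their median log2 fold change was -0.03 (KO minus WT), and that of all genes was -0.01. All of the 95% intervals lay between -0.39 and 0.57, inside a 2-fold change. As in any bulk sample, fewer cells in S phase and less RNA per cell cannot be told apart.

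CDC6, the ATPase that brings CDT1 and the helicase to the origin, had TPM of 83.4 and 109 with WT and 124 and 120 with KO. Both KO libraries lay above both WT libraries. Its log2 fold change was 0.23 (standard error 0.08, limma adjusted p = 0.139), and 0.15 without WT replicate 1. MCM7 had TPM of 213 and 263 with WT and 222 and 221 with KO, and its log2 fold change was -0.23 (standard error 0.07, limma adjusted p = 0.115). The groups overlapped as deposited and lay apart once scaled. MCM10 had TPM of 34.5 and 54.2 with WT against 55.4 and 58.1 with KO, and MCM2 had 107 and 162 against 167 and 158. WT replicate 1 was the low library for MCM10 and MCM2, as for the other 8 members in deposited TPM.

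The KO against WT result depended on which WT library was kept. Without WT replicate 2, MCM2 and MCM10 were called higher in KO, with log2 fold changes of 0.35 and 0.46 (limma adjusted p = 0.0465 and 0.0319). Without WT replicate 1, which had the large mitochondrial share, 0 members were called and the values were -0.01 and 0.05.

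Full-length SETD2 also left all members below the threshold for a call. Against KO, 0 of 10 were higher and 0 lower in limma with Benjamini-Hochberg adjustment, where 0.176% of 15933 genes were higher and 0.0314% lower. At an unadjusted p under 0.05 there were 2 members, CDT1 and MCM5, against 15.9% of all genes. At a fold change of at least 2 there were 0 members and 0.0816% of all genes. The members' median log2 fold change was -0.02, and that of all genes was 0.01. The 95% intervals of all members lay between -0.47 and 0.24.

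CDT1 had TPM of 109 and 115 with KO and 85.2 and 98.1 with SETD2 FL. The groups did not overlap, and SETD2 FL replicate 3 was the lowest of the 6 libraries. Its log2 fold change was -0.31 (95% interval -0.47 to -0.15, limma adjusted p = 0.137). MCM5 had TPM of 109 and 102 with KO and 88.5 and 91.8 with SETD2 FL, again without overlap. Its log2 fold change was -0.25 (95% interval -0.37 to -0.13, limma adjusted p = 0.123). Neither was called under any alternative tried, and both values stayed negative under each of them.

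With SETD2 C, 5 members were lower than in KO (MCM5, MCM6, MCM7, CDC6 and CDT1) and 1 was higher (MCM4). Across all genes tested in limma at the same adjusted p, 15.1% were lower and 21.1% higher. At a fold change of at least 2 there were 0 members, where 4.06% of all genes passed. The members' median log2 fold change was -0.17 (SETD2 C minus KO), beside 0.05 for all genes, and it was -0.02 beside 0.18 without scaling. The changes were small, from 0.757-fold for CDT1 to 1.17-fold for MCM4.

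**Figure D2:**
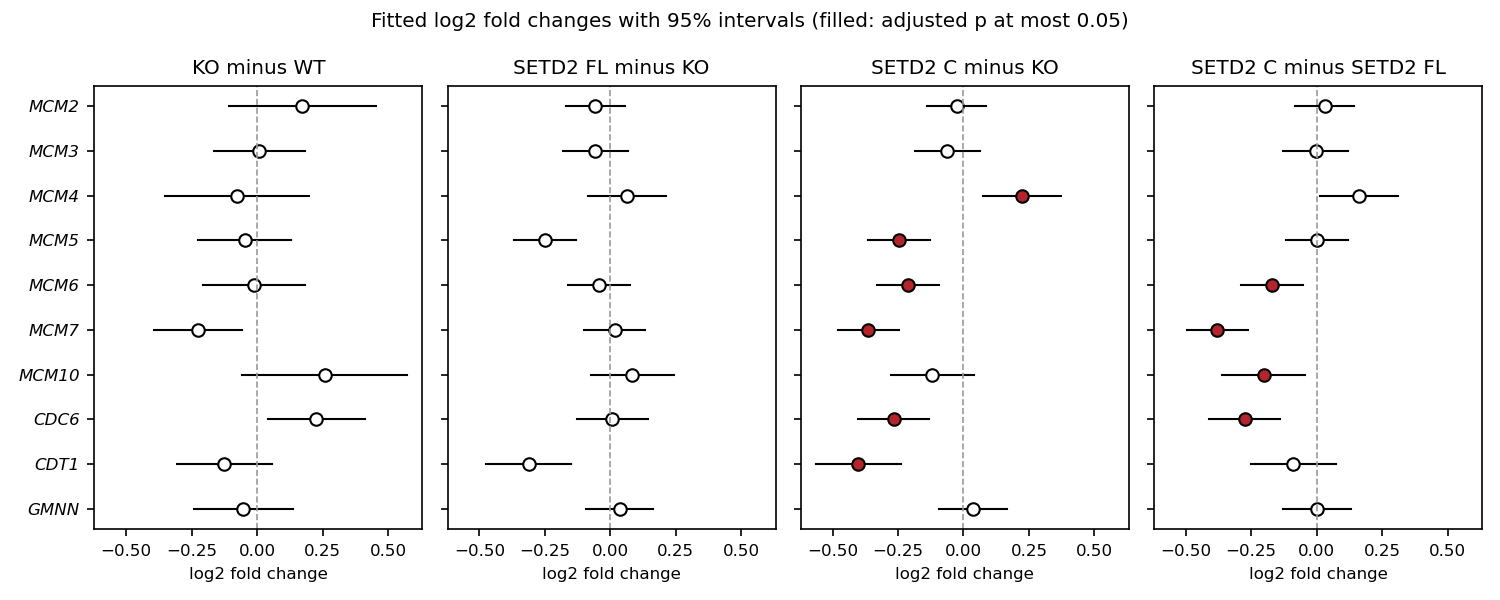
Fitted log2 fold change (horizontal axis) of each licensing gene in 4 comparisons, with 95% intervals as lines and filled points for an adjusted p of at most 0.05. Filled points occur only in the comparisons with SETD2 C, where MCM7 is at -0.36 against KO and -0.38 against SETD2 FL.

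Of the helicase subunits, MCM7 fell most. Its gene (ENSG00000166508) covers bases 100092233 to 100101940 of chromosome 7 (GRCh38, minus strand), with 15 exons in its reference transcript. KO libraries had MCM7 TPM of 218 and 219, SETD2 FL libraries 216 and 232, and SETD2 C libraries 192 and 184. Both SETD2 C libraries lay below all 4 others. The log2 fold change against KO was -0.36 (standard error 0.05, limma adjusted p = 0.00163), a level 0.778-fold that of KO. It was called under all 14 alternatives, with log2 fold changes between -0.40 and -0.22 and adjusted p between 0.000956 and 0.0200 in limma. The value nearest to 0 was that without scaling. Library strand is not stated in the sources used here, and 392 exon bases of MCM7 are shared with AP4M1 on the other strand, so reads in that stretch cannot be assigned to either with certainty.

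MCM4 (ENSG00000104738, chromosome 8, plus strand, 17 exons) moved the other way. Its TPM was 141 and 157 in KO, 154 and 162 in SETD2 FL and 188 and 199 in SETD2 C libraries. The SETD2 C libraries were the highest of the second table. Against KO the log2 fold change was 0.22 (standard error 0.06, limma adjusted p = 0.0290). The direction held under every scaling, but the call was lost without KO replicate 2, SETD2 C replicate 1 or SETD2 C replicate 2, with log2 fold changes of 0.14, 0.26 and 0.19 (limma adjusted p = 0.162, 0.0570 and 0.149). It was also lost with no filter on low values and with eBayes without trend.

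MCM5 (ENSG00000100297, chromosome 22) had TPM of 109 and 102 with KO and 98.6 and 98.7 with SETD2 C, without overlap. MCM6 (ENSG00000076003, chromosome 2) had TPM of 68.2 and 67.6 with KO and 63.6 and 66.2 with SETD2 C, again without overlap. Their log2 fold changes against KO were -0.25 (limma adjusted p = 0.00852) and -0.21 (limma adjusted p = 0.0150), each with a standard error of 0.05. Neither was called without scaling, where the values were -0.10 and -0.07, nor after rescaling TPM without the mitochondrially encoded genes and SETD2, where they were -0.15 and -0.12. The MCM5 call was lost without KO replicate 2 (-0.21, limma adjusted p = 0.0552). The MCM6 call was lost without KO replicate 2, KO replicate 4 or SETD2 C replicate 1, at -0.21, -0.21 and -0.19 (limma adjusted p = 0.0619, 0.0618 and 0.0830), and with eBayes without trend.

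MCM2 and MCM3 were not called against KO. MCM2 TPM was 144 and 141 with KO and 157 and 154 with SETD2 C, and MCM3 TPM was 151 and 142 against 158 and 153. As deposited, the SETD2 C libraries lay above KO for both genes, and after scaling the log2 fold changes were -0.03 and -0.06. Both values were positive under each of the other 3 scalings, so no direction is given. MCM2 shares 1113 of its 4715 exon bases with a lncRNA gene (ENSG00000285600) on the other strand, so the limit on assigning reads that holds for MCM7 holds for MCM2 too.

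Among the loaders, CDT1 (ENSG00000167513, chromosome 16, 88803789 to 88809258) was lower with SETD2 C. CDT1 TPM was 97.1 and 90.8 with SETD2 C, where KO had 109 and 115. The groups did not overlap, and the SETD2 C libraries fell within the range of the SETD2 FL libraries. Against KO the log2 fold change was -0.40 (standard error 0.07, limma adjusted p = 0.00420), called under all 14 alternatives with values between -0.45 and -0.25.

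CDC6 (ENSG00000094804, chromosome 17) had TPM of 93.7 and 88.3 (KO), 92.5 and 93.0 (SETD2 FL), and 80.6 and 86.9 (SETD2 C). The SETD2 C libraries were the lowest of the second table. The log2 fold change against KO was -0.27 (standard error 0.06, limma adjusted p = 0.0102). It was not called without scaling (-0.12), with rescaled TPM (-0.17), without KO replicate 2 (-0.23, limma adjusted p = 0.0592) or without SETD2 C replicate 1 (-0.22, limma adjusted p = 0.0631).

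Geminin and MCM10 were not called against KO. GMNN (ENSG00000112312, chromosome 6) had TPM of 110 and 113 in KO, 116 and 116 in SETD2 FL and 130 and 123 in SETD2 C libraries. As deposited, the SETD2 C libraries were the highest, and scaling left a log2 fold change of 0.04 (95% interval -0.09 to 0.17). Without scaling GMNN was called higher, at 0.18 (limma adjusted p = 0.0341). MCM10 (ENSG00000065328, chromosome 10) had TPM of 27.1 and 29.5 with KO and 28 and 29.7 with SETD2 C, which overlap, and a log2 fold change of -0.12 (95% interval -0.28 to 0.04). Without scaling the MCM10 value was 0.027.

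**Figure D3:**
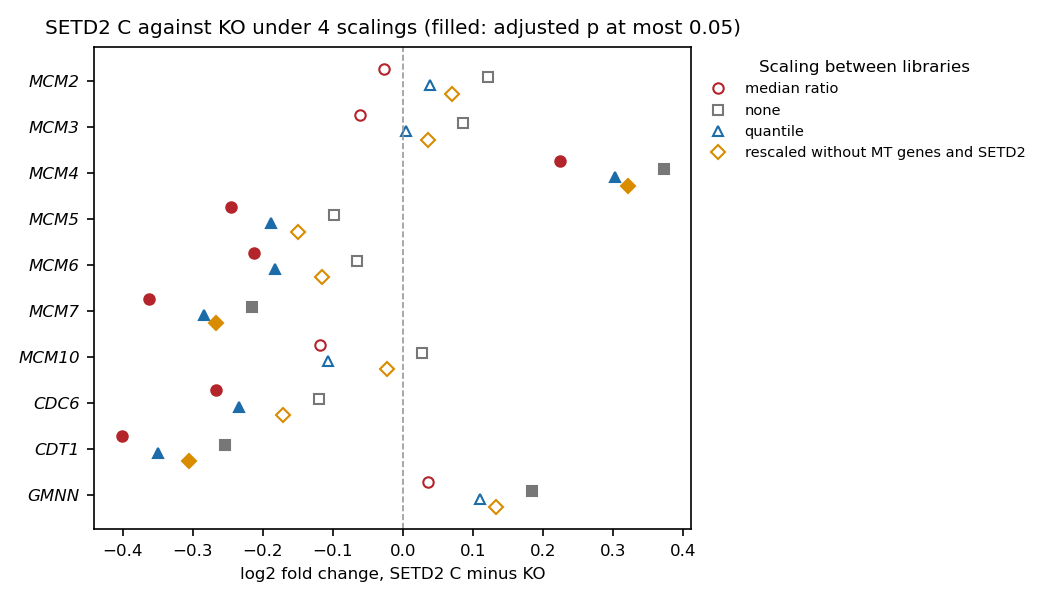
Log2 fold change of SETD2 C minus KO (horizontal axis) for each licensing gene under 4 ways of scaling between libraries, filled where the adjusted p is at most 0.05. MCM4, MCM7 and CDT1 are filled under all 4, and MCM2, MCM3 and MCM10 fall on both sides of 0.

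Compared with SETD2 FL, SETD2 C gave 4 members lower (MCM6, MCM7, MCM10 and CDC6) and 0 higher. In limma at the same adjusted p, 16.8% of all genes were lower and 21.4% higher, and an unadjusted p under 0.05 was reached by 5 of the 10 members and by 7775 of 15933 genes. At a fold change of at least 2 there were 0 members against 3.78% of all genes. The median log2 fold change was -0.05 for the members and 0.04 for all genes, and without scaling it was 0.08 and 0.16. This comparison shares the SETD2 C libraries with the one against KO, so the 2 sets of calls are not independent.

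MCM7 had the lowest value of the 10 members in this comparison, with a log2 fold change of -0.38 against SETD2 FL (standard error 0.05, limma adjusted p = 0.00117). It was called under all 14 alternatives, with values between -0.42 and -0.25. CDC6 was at -0.28 (limma adjusted p = 0.00825), a call lost without scaling, at -0.15, and without SETD2 C replicate 1, at -0.23 (limma adjusted p = 0.0519). MCM6 was at -0.17 (limma adjusted p = 0.0331). MCM10, with TPM of 30.2 and 30.7 in SETD2 FL, was at -0.20 (limma adjusted p = 0.0497). The MCM6 and MCM10 calls were each lost when any 1 of the 4 libraries was left out, with log2 fold changes of -0.19 to -0.15 for MCM6 and -0.24 to -0.17 for MCM10 (limma adjusted p up to 0.147 and 0.198). Both were also lost under each of the other 3 scalings, with values of -0.04 and -0.08 without scaling (limma adjusted p = 0.617 and 0.437), and with eBayes without trend. The MCM10 call was further lost with a pseudocount of 0.1, with no filter and with all gene types. MCM4 had a log2 fold change of 0.16 (limma adjusted p = 0.0825), and it was called higher under each of the other 3 scalings.

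CDT1 and MCM5 were close between the rescue groups. CDT1 had a log2 fold change of -0.09 (95% interval -0.25 to 0.07) and MCM5 one of 0.00 (95% interval -0.12 to 0.12). GMNN was also at 0.00 (95% interval -0.13 to 0.13).

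The helicase holds its subunits in equal number, so the balance of their transcripts within a library was read next, a quantity that a single factor per library leaves unchanged. MCM4 made up 17.0% and 18.9% of the summed MCM2 to MCM7 TPM in KO, 19.4% and 19.1% in SETD2 FL and 21.9% and 23.2% in SETD2 C libraries. MCM7 made up 26.2% and 26.4% (KO), 27.1% and 27.4% (SETD2 FL), and 22.4% and 21.5% (SETD2 C). Both SETD2 C libraries thus had the highest MCM4 share and the lowest MCM7 share of the second table. The MCM4 to MCM7 ratio was 0.649 and 0.718 (KO), 0.715 and 0.695 (SETD2 FL), and 0.978 and 1.08 (SETD2 C). The exact permutation test (two-sided, n = 2 per group) gave p = 0.333 for the MCM4 share, the MCM7 share and this ratio, which is the smallest p that 2 libraries against 2 allow.

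Between SETD2 C and KO, and between SETD2 C and SETD2 FL, the mean shares of the other subunits moved by less. MCM5 took 13.1% and 12.3% with KO, 11.1% and 10.8% with SETD2 FL, and 11.5% in both SETD2 C libraries. MCM6 took 8.20% and 8.15% with KO and 7.42% and 7.74% with SETD2 C. Both KO libraries had a higher share of MCM5 and of MCM6 than both SETD2 C libraries. MCM2 ranged from 16.9% to 18.3% and MCM3 from 17.1% to 18.5% over the 6 libraries. The summed TPM of the subunits was 832 and 829 (KO), 796 and 847 (SETD2 FL), and 857 and 855 (SETD2 C). After scaling these sums became 861 and 867, 833 and 852, and 807 and 800, so the order of KO and SETD2 C turned with the scaling.

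**Figure D4:**
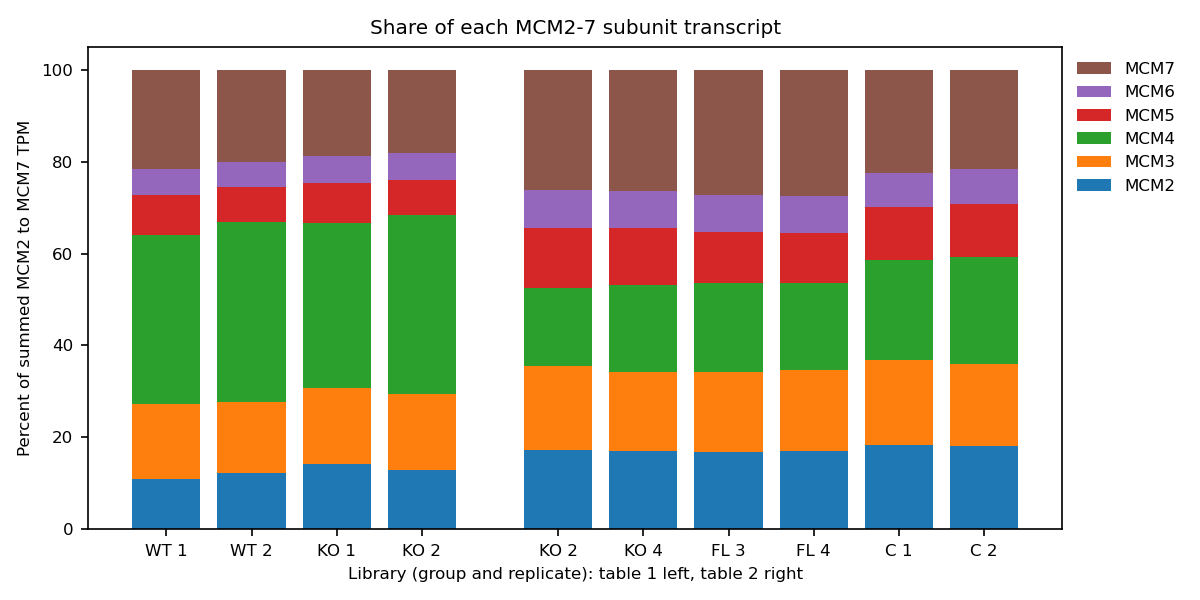
Percent of the summed MCM2 to MCM7 TPM taken by each subunit (stacked bars, vertical axis) in each library, the first table on the left and the second on the right. The MCM4 band is 35.9% to 39.2% in the first table and 17.0% to 23.2% in the second.

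In the first table the shares had another order. MCM4 took 36.8% and 39.2% with WT and 35.9% and 39.0% with KO, which overlap. MCM7 took 21.5% and 20% with WT and 18.8% and 18.1% with KO, without overlap, and MCM2 took 10.8% and 12.3% against 14.1% and 12.9%. The exact permutation test gave p = 0.333 for the MCM7 and MCM2 shares (two-sided, n = 2 per group) and p = 0.667 for MCM4. The difference in MCM4 share between the KO libraries of the tables, which differ in batch, was not tested. Whether both tables were made with the same annotation and quantification was not tested either.

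Geminin and CDT1 are inhibitor and target, and their TPM ratio within a library is likewise unchanged by such a factor. KO libraries had GMNN to CDT1 ratios of 1.01 and 0.980, SETD2 FL libraries 1.36 and 1.18, and SETD2 C libraries 1.34 and 1.36. All 4 libraries with a SETD2 construct lay above both KO libraries, and the SETD2 FL and SETD2 C libraries overlapped. SETD2 FL differed from KO by 0.276 and SETD2 C by 0.355, each with p = 0.333 in the exact permutation test (two-sided, n = 2 per group). In the first table the ratio was 2.72 and 2.71 with WT and 2.65 and 3.10 with KO, which overlap (exact permutation p = 1).

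The pattern over the second table was compared with that of other genes. The mean of the 10 members, each centred and divided by its SD, was most like ACOT7 (Pearson correlation over the 6 libraries 0.9996) and PRPS1 (0.998), and RPL13 (0.993) and HNRNPL (0.993) were also close to it, among 13413 protein-coding genes outside the members. Deposited TPM of ACOT7 was 75.7 and 77.8 (KO), 67.4 and 72.7 (SETD2 FL), and 69.1 and 64.6 (SETD2 C). The members did not share this profile evenly, since CDT1 correlated with their mean at 0.93, MCM6 at 0.90 and MCM7 at 0.87, while GMNN was at -0.25 and MCM4 at -0.83. Each member is part of that mean, which raises its own correlation, so these values are not comparable with those of genes outside the members. The 6 libraries fall into 3 groups, so a relation between genes cannot be tested over them.

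Other genes start close to the members on the opposite strand. Within 1000 bases, and by GENCODE gene starts, PRKDC starts 7 bases from MCM4, TPRA1 143 bases from MCM2, and AP4M1 391 bases from MCM7. These neighbours were chosen after the values of the members were seen. PRKDC, which encodes the DNA-dependent protein kinase catalytic subunit, had TPM of 183 and 189 (KO), 190 and 162 (SETD2 FL), and 146 and 141 (SETD2 C). Its log2 fold change with SETD2 C against KO was -0.52 (standard error 0.09, limma adjusted p = 0.00377), opposite to that of MCM4. AP4M1, which encodes an adaptor protein complex subunit, had TPM of 10.9 and 12.5 (KO), 10.2 and 9.54 (SETD2 FL), and 15.6 and 19.3 (SETD2 C). Against KO the SETD2 C value was a log2 fold change of 0.41 (standard error 0.12, limma adjusted p = 0.0292), opposite to that of MCM7, and the call was lost without KO replicate 2, at 0.31, or without SETD2 C replicate 2, at 0.26 (limma adjusted p = 0.140 and 0.167), and with no filter or without trend. TPRA1 was not called in any of the 4 comparisons.

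Genes that act with the members were read by list. For each list the shares of all genes called higher and lower were 21.1% and 15.1% for SETD2 C against KO, and 21.4% and 16.8% for SETD2 C against SETD2 FL. In the origin recognition complex list, with 7 genes tested, SETD2 C against KO gave 0 higher and 1 lower, LRWD1, an ORC-associated protein, with a log2 fold change of -0.40 (limma adjusted p = 0.00668). Against SETD2 FL there was 1 higher, ORC6 at 0.25, and 1 lower, LRWD1 at -0.35. The ORC6 call was lost without SETD2 FL replicate 4, at 0.16, and without SETD2 C replicates 1 and 2, at 0.19 and 0.30, and with no filter, without trend and with all gene types. The LRWD1 call against SETD2 FL was lost without SETD2 FL replicate 3, at -0.34, without SETD2 C replicate 2, at -0.23, and without scaling, at -0.22. Without scaling, the genes called higher numbered 2 in each of these comparisons, and with rescaled TPM there was 1 against KO. The list median was -0.03 against KO.

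Of 14 genes of helicase activation, 1 was higher and 4 were lower with SETD2 C than with KO. The 4 became 1 without KO replicate 4 or SETD2 C replicate 2, 2 without KO replicate 2 or SETD2 C replicate 1, 1 without scaling, 1 with rescaled TPM and 2 without trend. CDC45, part of the active helicase, had a mean TPM of 114 ± 4.11 with KO and 84.4 ± 2.34 with SETD2 C (SD, n = 2). Its log2 fold change of -0.58 (standard error 0.06, limma adjusted p = 0.000428) was the lowest of the list and held under all alternatives. MTBP, a firing factor, was the higher gene at 0.40, a call lost without any 1 of the 4 libraries (0.39 to 0.42), with no filter and without trend. Against SETD2 FL, 1 was higher, DONSON at 0.24, lost without SETD2 FL replicates 3 and 4 (0.27 and 0.21) or SETD2 C replicate 2 (0.14), with no filter, without trend, with all gene types and with only the 4 libraries compared, and 3 were lower, with GINS3 lowest at -0.55 (limma adjusted p = 0.000597). The 1 higher became 3 without scaling and 2 with rescaled TPM.

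Of 6 tested relatives and partners of the MCM proteins, 0 were higher and 2 lower against KO, MCM8 at -0.22 and MCM3AP at -0.19. Neither call held without scaling (-0.08 and -0.04), with rescaled TPM (-0.13 and -0.10) or without trend. MCM3AP was also lost with quantile normalization and with only the 4 libraries compared, MCM8 with no filter, and both calls were lost without KO replicate 2 (-0.17 for each), SETD2 C replicate 1 (-0.24 and -0.23) and SETD2 C replicate 2 (-0.20 and -0.15), MCM3AP also without KO replicate 4 (-0.22). The 0 called higher became 2 without scaling and 1 with rescaled TPM. Against SETD2 FL, MCM9 was higher at 0.34 and 2 were lower, with the histone chaperone NASP lowest at -0.25. The MCM9 call was lost without SETD2 FL replicate 4, at 0.28, or SETD2 C replicate 1, at 0.32. The NASP call was lost without SETD2 FL replicates 3 and 4, at -0.26 and -0.24, or SETD2 C replicate 1, at -0.19. It was also lost without scaling, at -0.12, with quantile normalization, at -0.19, with rescaled TPM, at -0.22, with no filter and without trend. The 2 lower became 0 without scaling, with rescaled TPM or without trend, and 0 to 1 when leaving out 1 library, with 0 without SETD2 FL replicate 3, SETD2 FL replicate 4 or SETD2 C replicate 1. MCMDC2 did not pass the filter.

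Genes of CDT1 and CDC6 turnover were called in both directions, with 4 of 13 higher and 3 lower against KO, where 21.1% of all genes were higher and 15.1% lower. CUL4B, a cullin of the ligases that degrade CDT1, had a mean TPM of 104 ± 4.65 with KO, 91.6 ± 5.56 with SETD2 FL and 221 ± 22.9 with SETD2 C (SD, n = 2). The log2 fold change was 0.93 against KO (limma adjusted p = 0.000205) and 1.13 against SETD2 FL (limma adjusted p = 6.81e-05). CUL1, the cullin of SCF ligases, had a mean TPM of 41.3 ± 2.38 with SETD2 C and 51.7 ± 1.23 with KO, with log2 fold changes of -0.47 against KO and -0.56 against SETD2 FL (limma adjusted p = 0.00165 and 0.000731). All 4 of these calls held under every alternative tried. Against SETD2 FL the list again had 4 higher and 3 lower, where 21.4% of all genes were higher and 16.8% lower. The 3 lower became 1 in both comparisons without scaling or without SETD2 C replicate 2, and against KO also without KO replicate 2. The geminin relative MCIDAS was the 1 tested gene of its list, since GMNC did not pass the filter. It was not called in any comparison, with log2 fold changes for SETD2 C of -0.48 against KO and -0.44 against SETD2 FL. MCIDAS was called lower in both of these without SETD2 C replicate 1 and with quantile normalization.

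At the replication fork, 3 of 27 genes were higher and 6 lower against KO, and 3 were higher and 8 lower against SETD2 FL. Of all genes, 21.1% were higher and 15.1% lower against KO, and 21.4% and 16.8% against SETD2 FL. The splits of the list turned with the scaling. Against KO there were 9 higher and 2 lower without scaling, and 9 higher with rescaled TPM. Against SETD2 FL there were 10 higher and 2 lower without scaling, 6 higher and 4 lower with quantile normalization, and 5 higher with rescaled TPM. The 8 lower became 3 without trend, 5 without SETD2 FL replicate 3, and 4 without SETD2 FL replicate 4, SETD2 C replicate 1 or SETD2 C replicate 2. POLE2, a subunit of the leading-strand polymerase, was lowest in both, at -0.51 against KO and -0.47 against SETD2 FL (limma adjusted p = 0.00107 and 0.00132). CLSPN was highest against KO at 0.30, a call lost without KO replicates 2 and 4 (0.26 and 0.33) or SETD2 C replicate 2 (0.24), and RFC2 was highest against SETD2 FL at 0.29. Between KO and WT, 1 gene of this list was called, the DNA ligase LIG1, with mean TPM of 36 ± 3.63 in KO and 49.2 ± 1.24 in WT (SD, n = 2). Its log2 fold change was -0.58 (limma adjusted p = 0.0457), a call lost without WT replicate 1 (-0.44), KO replicate 1 (-0.66) or KO replicate 2 (-0.49), without scaling (-0.45, limma adjusted p = 0.0964), with no filter, without trend and with all gene types. Without WT replicate 2 there were 2 called lower.

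Of 13 E2F, DP and pocket protein genes, 1 was higher and 2 were lower with SETD2 C against KO, and the counts were 1 and 2 against SETD2 FL. The shares of all genes were 21.1% and 15.1%, and 21.4% and 16.8%. The 1 higher became 4 and 3 in these comparisons without scaling and 3 and 2 with rescaled TPM, and the 2 lower became 4 in each with quantile normalization. Leaving out 1 library, the 1 higher became 2 without SETD2 C replicate 1 in both comparisons, 2 without SETD2 FL replicate 4, and 0 against KO without KO replicate 4 or SETD2 C replicate 2. E2F5, mostly a repressor, was lowest in both, at -0.57 against KO and -0.68 against SETD2 FL (limma adjusted p = 0.00247 and 0.00105). It was also the 1 gene of the list called between KO and WT, at -0.66 (limma adjusted p = 0.00848), a call lost without KO replicate 2 (-0.67, limma adjusted p = 0.0550) or without scaling (-0.54, limma adjusted p = 0.0518). The pocket protein gene RBL2 was higher, at 0.34 against KO and 0.51 against SETD2 FL, and the call against KO was lost without KO replicate 4 (0.27) or SETD2 C replicate 2 (0.23), and without trend. Of 10 other E2F-responsive genes, 2 were higher and 1 lower against KO, with CCNE2 at 0.27, lost without any 1 of the 4 libraries (0.24 to 0.30) and with quantile normalization (0.21), and UNG at -0.52. The 2 higher became 4 without scaling and 4 with rescaled TPM, 1 without KO replicate 4 or SETD2 C replicate 1, and 0 without KO replicate 2 or SETD2 C replicate 2. Against SETD2 FL, 3 were higher, led by RRM2 at 0.31, and 1 was lower, UNG at -0.32. These 3 became 1 without SETD2 FL replicate 3, SETD2 FL replicate 4 or SETD2 C replicate 2.

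Of 18 mitosis genes, SETD2 C against KO had 11 higher and 0 lower in limma, where 21.1% of all genes were higher and 15.1% lower. The 11 became 6 without trend, 6 without KO replicate 4, 5 without SETD2 C replicate 1 and 7 without SETD2 C replicate 2. Their median log2 fold change was 0.20, where that of the licensing genes was -0.17 and that of all genes 0.05. No test of the difference between the lists was made. BUB1, a spindle checkpoint kinase, rose most, with mean TPM of 96.6 ± 3.59 (SD, n = 2) against 53.2 ± 0.141 in KO and a log2 fold change of 0.71 (limma adjusted p = 0.000123). CCNB1 was the called gene with the smallest change, at 0.18, a call lost without any 1 of the 4 libraries (0.13 to 0.22), with no filter and without trend. Against SETD2 FL, 8 were higher, led by BUB1 at 0.65, and 1 was lower, CDC25C at -0.21, which was lost without any 1 of the 4 libraries (-0.27 to -0.16), under each of the other 3 scalings (-0.09 without scaling), with no filter, without trend, with all gene types and with only the 4 libraries compared. Summed TPM of the list, as deposited, was 1538 and 1524 (KO), 1548 and 1619 (SETD2 FL), and 2036 and 2029 (SETD2 C). These sums were not scaled, unlike the log2 fold changes above.

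**Figure D5:**
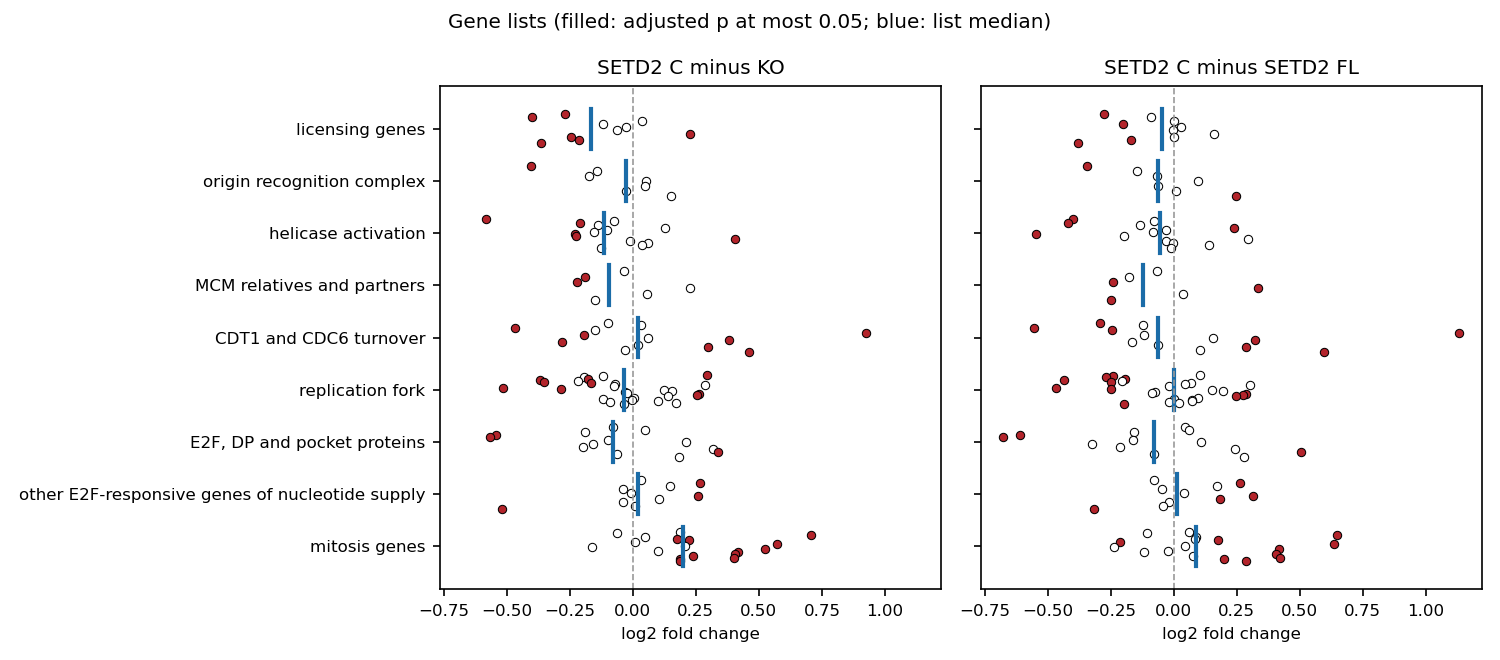
Log2 fold change (horizontal axis) of every tested gene of 9 lists with SETD2 C against KO (left) and against SETD2 FL (right), filled where the adjusted p is at most 0.05, with the list median in blue. The medians of the licensing and the mitosis genes are -0.17 and 0.20 on the left.

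With SETD2 FL against KO, 0 genes of these lists were called in limma with Benjamini-Hochberg adjustment. Between KO and WT, LIG1 and E2F5 were the called genes of these lists in limma.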

How the data were processed

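The authors aligned paired reads with STAR 2.6.1c, estimated abundance with RSEM 1.3.0 on GRCh38, per the submitters' processing notes, and deposited TPM for 58884 genes in 2 tables. The 10 RNA libraries were used, and the ChIP-seq samples were not analysed here. Gene types and positions came from GENCODE 44 (58472 genes matched by identifier, 31 by symbol). Scaling used, per library, the median over genes (TPM of at least 1 throughout a table) of the ratio to the gene's geometric mean. Protein-coding and lncRNA genes that reached TPM 0.5 in 2 or more libraries entered the test as log2(scaled TPM + 0.5) in limma 3.58.1 (R 4.3.3, eBayes with trend, two-sided), which understates changes of low genes. The 4 libraries of the first table formed 1 fit and the 6 of the second another. Calls required a Benjamini-Hochberg adjusted p no higher than 0.05. The design named all members, SETD2, the called gene with the largest and that with the smallest log2 fold change of each other list, and the 5 genes most like the member mean, of which 4 are given. Members and lists were chosen with earlier results of these data known. The procedure was tested on simulated data.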

Additional observations from a re-analysis of the deposited data

How the results depend on the processing

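The log2 fold changes of 10 genes in 4 comparisons were recomputed under 14 alternatives, which gave 560 values. Of these, 469 kept direction and side of the threshold, 39 lost a call, 6 gained a call and 46 changed sign, all 46 of them without a call under either choice. The calls of MCM7 in SETD2 C against KO and against SETD2 FL, and of CDT1 in SETD2 C against KO, held under all 14. Leaving out a library leaves 1 library in a group, which is then assumed to vary like the others. Causes of the changes below were not tested.

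In SETD2 C against KO, 1 member was called higher. This became 2 without scaling, 0 with no filter beyond TPM above 0, 0 with eBayes without trend, 0 with the added 2-fold condition, and 0 to 1 when leaving out 1 library. The 5 called lower became 2 without scaling, 2 with TPM rescaled without mitochondrially encoded genes and SETD2, 0 with the added 2-fold condition, and 2 to 5 when leaving out 1 library, with 2 without KO replicate 2 and 3 without SETD2 C replicate 1. In SETD2 C against SETD2 FL, 0 called higher became 1 without scaling, 1 with quantile normalization and 1 with rescaled TPM. The 4 called lower became 1 without scaling, 2 with quantile normalization, 2 with rescaled TPM, 2 without trend, 0 with the added 2-fold condition, and 1 to 2 when leaving out 1 library, with 1 without SETD2 C replicate 1. Between KO and WT, 0 called higher became 0 to 2 when leaving out 1 library, with 2 without WT replicate 2.

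The summed TPM of MCM2 to MCM7 differed by 25.2 between SETD2 C and KO and by 34.5 between SETD2 C and SETD2 FL, and by -60.7 and -38.9 after scaling. Between SETD2 C and SETD2 FL it was 9.01 without SETD2 FL replicate 3 and 60.0 without SETD2 FL replicate 4. The MCM4 share differed by 3.33 percentage points between SETD2 C and SETD2 FL, and by 2.46 when MCM7 was left out of the sum.

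Changes of sign gave these log2 fold changes. With quantile normalization, KO against WT gave MCM3 -0.034, then SETD2 FL against KO gave CDC6 -0.0081, then SETD2 C against KO gave MCM2 0.038 and MCM3 0.0049, then SETD2 C against SETD2 FL gave MCM3 0.069. Without scaling, KO against WT gave MCM4 0.054, MCM5 0.083, MCM6 0.12, CDT1 0.0041 and GMNN 0.078, then SETD2 C against KO gave MCM2 0.12, MCM3 0.087 and MCM10 0.027, then SETD2 C against SETD2 FL gave MCM3 0.12 and CDT1 0.038. With rescaled TPM, KO against WT gave MCM6 0.0072, then SETD2 FL against KO gave MCM2 0.0071, MCM3 0.0064 and MCM6 0.020, then SETD2 C against KO gave MCM2 0.071 and MCM3 0.036, then SETD2 C against SETD2 FL gave MCM3 0.029. With all gene types, SETD2 C against SETD2 FL gave MCM5 -0.0026 and GMNN -0.0037. With only the 4 libraries compared, SETD2 C against SETD2 FL gave MCM5 -0.0012 and GMNN -0.0023. Leaving out 1 library at a time, the ranges that crossed 0 were as follows. For KO against WT they were MCM2 -0.0056 to 0.35, MCM3 -0.034 to 0.047, MCM4 -0.21 to 0.053, MCM5 -0.10 to 0.013, MCM6 -0.084 to 0.058 and GMNN -0.11 to 0.014. For SETD2 FL against KO they were MCM4 -0.020 to 0.15, MCM7 -0.0074 to 0.041 and CDC6 -0.028 to 0.043. For SETD2 C against KO they were GMNN -0.0074 to 0.081. For SETD2 C against SETD2 FL they were MCM3 -0.032 to 0.022, MCM5 -0.0024 to 0.0050 and GMNN -0.044 to 0.044.

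Genome-wide counts also moved. KO against WT, with 194 higher and 467 lower, gave 34 and 99 with no filter, 119 and 294 without trend, 126 and 303 with all gene types, 410 and 359 without scaling, and 31 to 477 and 126 to 768 when leaving out 1 library. SETD2 FL against KO, with 28 and 5, gave 3 and 0 with no filter, 47 and 11 without scaling, 57 and 4 with rescaled TPM, 10 and 0 without trend, 6 and 1 with all gene types, 16 and 7 with only the 4 libraries compared, and 2 to 9 and 0 when leaving out 1 library. SETD2 C against KO, with 3359 and 2405, gave 5509 and 1117 without scaling, 2457 and 2786 with quantile normalization, 4581 and 1473 with rescaled TPM, and 1734 to 2302 and 1331 to 1728 when leaving out 1 library. SETD2 C against SETD2 FL, with 3411 and 2676, gave 5192 and 1508 without scaling, 2700 and 3067 with quantile normalization, and 1868 to 2388 and 1570 to 2070 when leaving out 1 library.

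A fit with replicate number as a block, for KO against WT alone, called 0 of 10 members and 442 genes higher and 827 lower. The labels do not say that libraries of the same number are pairs, so this pairing is an assumption.

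TPM gives no depth, so no limit of detection can be given. Each group has 2 libraries of 1 cell line, no empty-vector library was compared, and SETD2 C and SETD2 FL differ in SETD2 transcript level as well as in sequence.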
